A study of Mus musculus with 3 samples.

Results

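Acod1 and 9 other genes used to describe the activation state of macrophages were followed in RNA-seq of mouse cardiac fibroblasts and of the induced cardiomyocytes (iCMs) made from them. The genes were the rows named Acod1, Nos2, Ptgs2, Tnf and Il6, taken as classical activation genes, and Il10, Arg1, Mrc1, Chil3 and Retnla, taken as alternative activation genes, 10 of the 54532 genes in the deposited tables. Acod1 was selected on its measured rise in these libraries, where it ranked 6 among the 15020 genes with over 10 counts in MICFs or GMTMS-iCMs. The difference of Acod1 between GMTMS-iCMs and MICFs is therefore a description of what chose it. The other members were chosen with earlier results of these libraries known.

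There were 3 libraries, 1 for each condition, so differences between conditions were not checked by replicates. MICFs were cardiac fibroblasts of adult Myh6-mCherry mice, isolated 5 days after myocardial infarction and kept in culture for 4 weeks without virus. GMTMS stands for virus-delivered Gata4, Mef2c, Tbx5, Myocd and Sall4, and GMTMM for the same set with Mesp1 in place of Sall4. The iCMs of both cocktails were grown for 4 weeks in medium with doxycycline at 1 μg/ml and sorted for mCherry, which the Myh6 promoter drives, and 5 sorted samples of each cocktail were mixed before RNA extraction. The labels do not say whether the MICF medium held doxycycline. All 3 libraries carry the Myh6-mCherry reporter, and the series design describes mCherry sorting for the iCMs alone.

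In macrophages, bacterial products and interferon-gamma act through their receptors and NF-kappaB, among other factors, to raise inflammatory cytokines, the nitric oxide synthase Nos2, the prostaglandin synthase Ptgs2 and Acod1, the mitochondrial enzyme that makes itaconate from cis-aconitate. Interleukin 4 and interleukin 13 act through Il4ra and STAT6 to raise Arg1, Mrc1, Chil3 and Retnla, and interleukin 10 is an anti-inflammatory cytokine that many activated macrophages also release. In the infarcted heart, recruited and resident macrophages lie among the fibroblasts, and several of these genes, Il6 and Ptgs2 among them, are also made by fibroblasts.

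The libraries held from 10624118 to 11904484 counts, so that a gene at 0 counts could have had up to 3. Levels are given as counts and as deposited FPKM, which are counts per length of the gene and size of the library. Differences are on the log2 (quantile-normalized FPKM + 1) scale, a difference over 1 is called higher or lower, and each fold divides one FPKM by another, with a 95% Clopper-Pearson interval on the counts, which covers counting error only. Sall4 was counted 0 times in MICFs, 1190 times in GMTMS-iCMs and 1060 times in the library labelled GMTMM, while Mesp1 had 0 counts in each, so this library is named by its label throughout and its values are not assigned to a cocktail. The 8 fibroblast markers summed to an FPKM of 1145 in MICFs, then 420 in GMTMS-iCMs, then 2250 in the library labelled GMTMM, and the 8 cardiomyocyte markers to 1.29, 1318 and 489. The 6 endothelial markers summed to 432, 10.9 and 333 in the same order. Against MICFs, 8 of 8 fibroblast and 6 of 6 endothelial markers were lower and 8 of 8 cardiomyocyte markers higher in GMTMS-iCMs, while 1 fibroblast and 7 cardiomyocyte markers were higher and 2 endothelial markers lower in the library labelled GMTMM. Without quantile normalization 3 fibroblast markers were higher and 0 endothelial markers lower in that library. On the main scale 3.13% of all genes were called higher and 2.72% lower in GMTMS-iCMs, and 2.12% and 1.3% in that library. The same shares stand beside the counts of blood cell markers below.

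All 3 libraries also held macrophage transcripts, whatever their label. The 16 macrophage markers, with none at 0, summed to an FPKM of 10538 in MICFs, then 20476 in GMTMS-iCMs, then 9725 in the library labelled GMTMM, or 1.89%, 2.70% and 1.38% of all counts. Lyz2, the lysozyme of macrophages and neutrophils, stood at an FPKM of 6135, 11353 and 5495. Among other blood cells, the neutrophil markers S100a9, Ly6g and Cxcr2 had 0 counts in every library, and the T cell genes Cd3e, Cd3d and Cd8a had 57, 30 and 63 counts in the library labelled GMTMM against at most 4 in the others. The 7 lymphocyte markers as a whole summed to 250, 515 and 384 counts, highest in GMTMS-iCMs, where Cd4 differed from MICFs by 1.48 against 0.18 in the library labelled GMTMM. Called higher against MICFs were 1 of 7 neutrophil markers, 1 of 7 lymphocyte markers and 2 of 7 dendritic and mast cell markers in GMTMS-iCMs, compared with 0, 3 and 1 in the library labelled GMTMM, among them Csf3r, the granulocyte colony-stimulating factor receptor that monocytes also carry, with 563, 1435 and 675 counts, and the mast cell protease Mcpt4 with 2, 78 and 350. In bulk RNA, fewer cells of a type and less RNA per cell cannot be told apart, and the part of each cell type in the results below was not tested.

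Stretches before the start of 3 members are shown: those of Acod1 and Il6, which were high in iCMs, and that of Retnla, which was not detected. They come from RefSeq on GRCm38.p6, where 7 of the 10 members had an entry, and each covers up to 250 bases before the RefSeq start, ended where the annotated GENCODE gene begins. Capitals mark the NF-kappaB consensus, the STAT6 motif (TTCNNNNGAA) or the PU.1 motif (GAGGAA, or TTCCTC on the other strand).
Acod1, chr14:103046762-103046976, plus strand: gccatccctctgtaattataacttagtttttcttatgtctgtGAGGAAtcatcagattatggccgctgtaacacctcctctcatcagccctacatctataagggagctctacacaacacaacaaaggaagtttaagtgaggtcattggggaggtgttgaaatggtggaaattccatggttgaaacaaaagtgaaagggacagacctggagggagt
Il6, chr5:30012864-30013113, plus strand: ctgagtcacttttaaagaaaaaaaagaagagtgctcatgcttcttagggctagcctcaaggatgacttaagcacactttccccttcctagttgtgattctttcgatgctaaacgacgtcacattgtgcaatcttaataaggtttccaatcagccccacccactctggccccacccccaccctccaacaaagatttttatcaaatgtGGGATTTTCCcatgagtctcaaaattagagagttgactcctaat
Retnla, chr16:48842359-48842550, plus strand: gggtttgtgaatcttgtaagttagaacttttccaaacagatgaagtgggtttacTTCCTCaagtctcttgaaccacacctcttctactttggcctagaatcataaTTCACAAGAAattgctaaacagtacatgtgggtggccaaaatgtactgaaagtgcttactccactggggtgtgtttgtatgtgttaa
The Il6 stretch held an NF-kappaB match from -44 to -35, an AP-1 match (TGANTCA) from -249 to -243 and a C/EBP match (TTNNGNAA) from -128 to -121 relative to the RefSeq start. Retnla held the STAT6 match from -145 to -136, which overlapped no other match, and Acod1 held 1 PU.1 match from -208 to -203 and no match to the NF-kappaB, AP-1 or STAT6 motifs. Of 32851 promoter windows of 250 bases, searched on both strands, 3.9% held the NF-kappaB consensus, 6.75% AP-1, 36.8% C/EBP, 5.85% STAT6 and 23.3% PU.1. None of the windows of the other matched members, Ptgs2, Tnf, Mrc1 and Chil3, held the NF-kappaB, AP-1 or STAT6 letters. Each motif was searched in a single consensus form, so variant sites and sites outside the 250 bases were not searched. The lack of a match does not show that a gene lacks such sites. A match is a run of letters in the window and does not show binding.

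Acod1 (ENSMUSG00000022126, chr14:103046977-103056573 on GRCm38, plus strand) went from near absence in MICFs to a well-counted transcript in both iCM libraries. It was counted 2 times in MICFs, 2532 times in GMTMS-iCMs and 1252 times in the library labelled GMTMM, or an FPKM of 0.053, 104 and 40.9. The MICF value lay within what a count of 0 allows. Compared with MICFs, Acod1 was higher by 6.44 in GMTMS-iCMs, an FPKM ratio of 1961 with an interval from 542 to 16204 that is set by the 2 counts in MICFs. In the library labelled GMTMM it was higher by 5.21, a ratio of 771 (213 to 6375). GMTMS-iCMs exceeded the library labelled GMTMM by 1.23, or 2.54-fold (2.38 to 2.72). No base of its exons lies in another gene, and no stretch of 50 bases of its transcript occurs in another gene.

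Ptgs2 (ENSMUSG00000032487, chr1:150100031-150108227, plus strand), the inducible cyclooxygenase of prostaglandin synthesis, was counted 343 times in MICFs, 7809 times in GMTMS-iCMs and 7262 times in the library labelled GMTMM. Its FPKM was 5.21, 184 and 136, high in both iCM libraries and low in MICFs. The difference from MICFs was 4.67 in GMTMS-iCMs, 35.3-fold (31.6 to 39.4), and 4.31 in the library labelled GMTMM, 26.1-fold (23.4 to 29.2). Both iCM libraries stood close to each other, with a difference of 0.37, which was not past the limit of 1 although the counting interval of the ratio, 1.31 to 1.40, lay above 1.

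Nos2 (ENSMUSG00000020826, chr11:78920787-78960254, plus strand), the inducible nitric oxide synthase, did not share the size of the changes of Acod1 and Ptgs2. It was counted 431 times in MICFs, 344 times in GMTMS-iCMs and 406 times in the library labelled GMTMM, or an FPKM of 6.79, 8.39 and 7.88. None of its differences was called. They were 0.25 and 0.13 from MICFs, with FPKM ratios of 1.24 (1.07 to 1.43) and 1.16 (1.01 to 1.33), whose intervals lay above 1. Between the iCM libraries the difference was 0.11, and the interval of the ratio, 0.920 to 1.23, included 1.

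Tnf (ENSMUSG00000024401, chr17:35199381-35202007, minus strand), the tumor necrosis factor cytokine, was already counted well in MICFs. The 3 libraries had 807, 2530 and 1432 counts and an FPKM of 34.2, 166 and 74.8, in the order MICFs, then GMTMS-iCMs, then the library labelled GMTMM. It was higher in GMTMS-iCMs than in MICFs by 1.71, 4.86-fold (4.49 to 5.26). The library labelled GMTMM differed from MICFs by 0.67, which was not called, with a ratio of 2.19 (2.00 to 2.39). This difference passed 1 in 3 of 9 scalings, up to 1.13 with DESeq2 size factors. Between the iCM libraries the difference of 1.04 lay just past the limit.

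Il6 (ENSMUSG00000025746, chr5:30013114-30019981, plus strand), the cytokine that signals through Il6st, was the one counted member with a lower level in GMTMS-iCMs than in the library labelled GMTMM. It was counted 122 times in MICFs, 772 times in GMTMS-iCMs and 11635 times in the library labelled GMTMM, or an FPKM of 3.49, 34.2 and 410. The differences from MICFs were 2.88 (9.80-fold, 8.09 to 12.0) and 6.45 (117-fold, 98.3 to 142). The library labelled GMTMM exceeded GMTMS-iCMs 12.0-fold (11.1 to 12.9), a difference of -3.57 for GMTMS-iCMs minus that library. The fibroblast markers were also higher in the library labelled GMTMM than in GMTMS-iCMs, by over 1 for 8 of 8 genes, and their part in the level of Il6 was not tested.

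**Figure D1:**
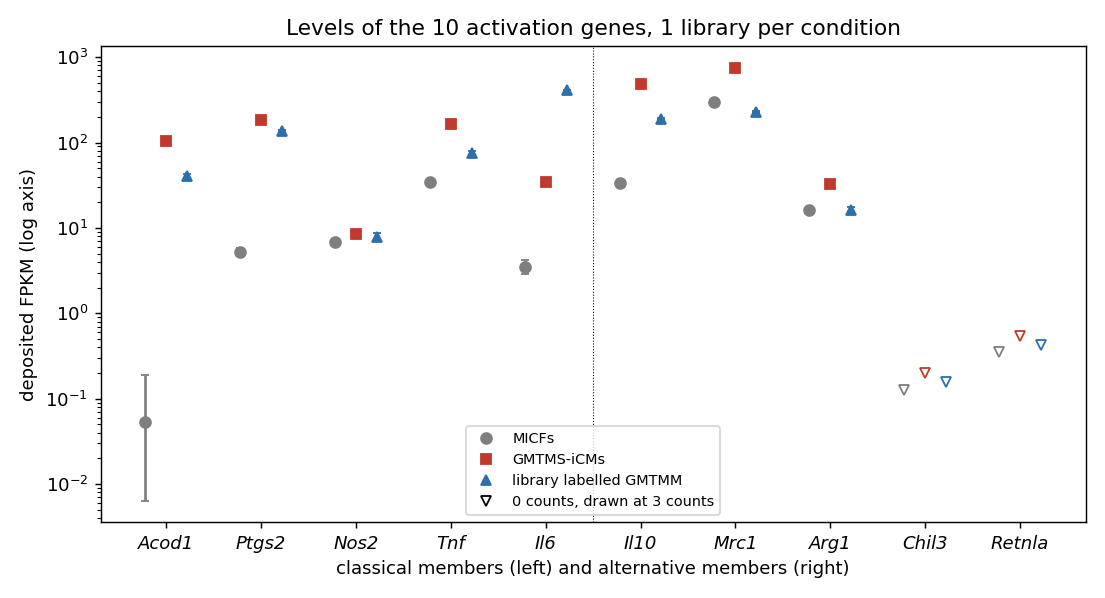
Deposited FPKM (log axis) of the 10 members in MICFs (grey circles), GMTMS-iCMs (red squares) and the library labelled GMTMM (blue triangles), 1 library each, with 95% Poisson intervals for counting error. Acod1 spans 0.053 to 104 between MICFs and GMTMS-iCMs, Nos2 stays between 6.79 and 8.39, Il6 reaches 410 in the library labelled GMTMM, and open triangles show the 3-count limit for Chil3 and Retnla at 0 counts.

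Il10 (ENSMUSG00000016529, chr1:131019845-131024974, plus strand), the anti-inflammatory cytokine, was the only alternative member called higher against MICFs. It was counted 642 times in MICFs, 5845 times in GMTMS-iCMs and 2892 times in the library labelled GMTMM, with an FPKM of 34.1, 480 and 189. Its differences from MICFs were 3.19 (14.1-fold, 13.0 to 15.3) and 1.98 (5.55-fold, 5.09 to 6.05). The order of the 3 libraries was that of Acod1, and the difference between the iCM libraries, 1.21, was close to the 1.23 of Acod1.

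Mrc1 (ENSMUSG00000026712, chr2:14229392-14332057, plus strand), the mannose receptor CD206, was the most abundant member in MICFs and in GMTMS-iCMs. It had 27268, 44302 and 17061 counts and an FPKM of 297, 749 and 229 in MICFs, then GMTMS-iCMs, then the library labelled GMTMM. The FPKM ratio of GMTMS-iCMs to MICFs was 2.52 (2.48 to 2.56), but the difference after quantile normalization was 0.42 and was not called. It ran from 0.42 to 1.33 over the scalings and passed 1 in 3 of 10. Abundant genes as a whole shifted with the scaling, since the median difference of the 1000 most abundant genes was -0.19 after quantile normalization and 0.43 without it. In the library labelled GMTMM, Mrc1 was lower than in MICFs by 1.30-fold in FPKM (1.27 to 1.32) and had a difference of -1.08, called lower, which ran from -1.11 to -0.37 and passed the limit in 6 of 9 scalings. These calls therefore rest on the scaling, while GMTMS-iCMs exceeded the library labelled GMTMM by over 1 in 9 of 9 (1.50 on the main scale).

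Arg1 (ENSMUSG00000019987, chr10:24915221-24927484, minus strand), the arginase that turns arginine into ornithine and urea, had 524, 680 and 420 counts and an FPKM of 16.3, 32.9 and 16.1. MICFs and the library labelled GMTMM were alike in FPKM, with a ratio of 0.987 whose interval, 0.866 to 1.13, included 1, and GMTMS-iCMs stood at 2.01-fold MICFs (1.79 to 2.26). None of its differences was called on the main scale. They were 0.65 and -0.26 from MICFs and 0.91 between the iCM libraries, and the first and the last passed 1 in 1 of 10 and 1 of 9 scalings, both with DESeq2 size factors.

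Chil3 (ENSMUSG00000040809, chr3:106147554-106167564, minus strand), a chitinase-like protein of mouse alternatively activated macrophages, and Retnla (ENSMUSG00000061100, chr16:48842551-48844461, plus strand), a secreted resistin-like protein, had 0 counts in every library. A count of 0 allows an FPKM of up to 0.128, 0.198 and 0.157 for Chil3 and 0.348, 0.539 and 0.429 for Retnla, in the order MICFs, then GMTMS-iCMs, then the library labelled GMTMM. Of the transcript words of 50 bases, 29.4% of those of Chil3 occur in another gene, against 0% for Retnla and the other members, and how reads with several matches were counted is not given in the sources used here. Among 7 related genes (Chil1, Chil4, Chit1, Chia1, Retn, Retnlb and Retnlg), 4 had 0 counts throughout, and Chil1 was called higher in the library labelled GMTMM by 1.42, an FPKM ratio of 70.2 (12.1 to 2821) over 1 count in MICFs.

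Counted together, 5 of the 10 members were called higher and 0 lower in GMTMS-iCMs against MICFs, 4 of 5 classical and 1 of 5 alternative members. Over all genes 3.13% were called higher and 2.72% lower in this comparison, and nothing is read from the count beside it, since Acod1 was chosen on it and the others with its results known. In the library labelled GMTMM against MICFs 4 members were called higher and 1 lower, where 2.12% and 1.3% of all genes were. In GMTMS-iCMs against the library labelled GMTMM 4 members were higher (Acod1, Tnf, Il10 and Mrc1) and 1 lower (Il6), where 2.33% and 2.84% of all genes were. Chil3 and Retnla could not be called at 0 counts, so 8 of 10 members could enter these counts. Among the 13919 genes with an FPKM of at least 1 in some library, 12.1% and 10.7%, 8.31% and 5.09%, and 9.01% and 11.1% were higher and lower in the 3 comparisons.

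The median difference of the classical members was 2.88 in GMTMS-iCMs versus 4.31 in the library labelled GMTMM, both against MICFs, and 0.37 between the iCM libraries. For the alternative members it was 0.42, 0.00 and 0.91. Chil3 and Retnla, at 0 counts throughout, enter this median, and the 0.00 is their value. With the FPKM filter of 1, which leaves them out, it was 0.65, -0.26 and 1.21. The median over all 54532 genes was 0.00 in each, and over expressed genes it was -0.04, -0.08 and 0.10. Both comparisons against MICFs share the one MICF library, so the low counts of Acod1, Il6 and Ptgs2 there enter both.

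**Figure D2:**
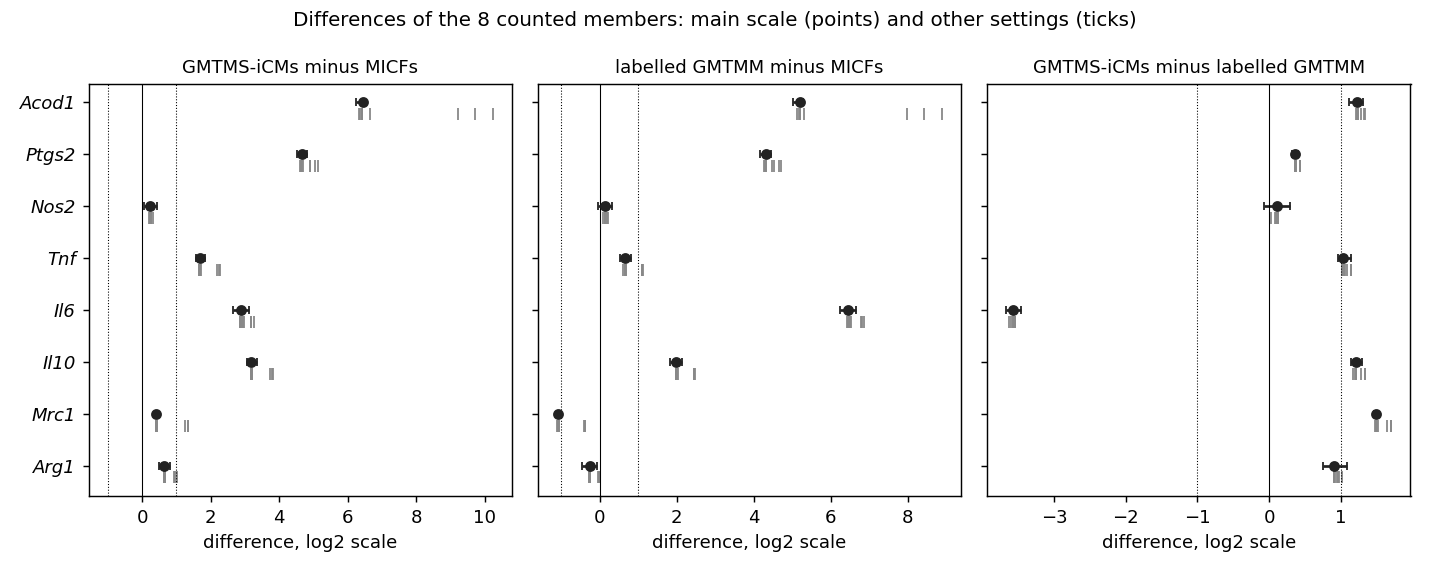
Differences of the 8 counted members on the log2 scale in the 3 comparisons, with points and 95% counting intervals for the main scale, grey ticks for the other settings and dotted lines at -1 and 1. Il6 is the single member left of 0 between the iCM libraries (-3.57). Mrc1, Tnf and Arg1 change sides of the limit with the setting against MICFs, and Acod1 reaches 10.2 with DESeq2 size factors.

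Within a library, the members stood in changed proportion to each other. The classical members summed to an FPKM of 49.8 in MICFs, then 496 in GMTMS-iCMs, then 669 in the library labelled GMTMM, led by Tnf (68.8% of the sum), Ptgs2 (37.0%) and Il6 (61.3%) in turn. The alternative members summed to 348, 1262 and 434, and Mrc1 gave 85.5%, 59.3% and 52.8% of that. Tnf and Il10, opposing cytokines, had an FPKM ratio of 1.00 in MICFs, then 0.346 in GMTMS-iCMs, then 0.396 in the library labelled GMTMM, so that Il10 gained on Tnf in both iCM libraries. Nos2 and Arg1, which compete for arginine, had a ratio of 0.415, 0.255 and 0.488, with Arg1 above Nos2 in each library. Il6 was below Il10 in MICFs (0.103) and GMTMS-iCMs (0.0713) and above it in the library labelled GMTMM (2.17).

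Because the macrophage markers themselves differed between the libraries, the members were also set against the summed counts of the 16 markers. Acod1 had 0.00891, 8.83 and 7.60 counts for each 1000 macrophage marker counts, 991-fold MICFs in GMTMS-iCMs (274 to 8186) and 853-fold in the library labelled GMTMM (236 to 7049). For Ptgs2 the ratio to MICFs was 17.8 (16.0 to 19.9) and 28.8 (25.9 to 32.2), for Il10 7.13 (6.57 to 7.74) and 6.14 (5.63 to 6.69), and for Tnf 2.45 (2.27 to 2.66) and 2.42 (2.22 to 2.64). For Acod1 the ratio rests on 2 MICF counts and on the rise that selected it. Il6 was at 4.95 (4.09 to 6.04) and 130 (109 to 157).

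Arg1, Mrc1 and Nos2 lay closer to 1 on this measure. Arg1 stood at 1.02 (0.905 to 1.14) and 1.09 (0.958 to 1.24), and both intervals included 1. Mrc1 stood at 1.27 (1.25 to 1.29) and 0.852 (0.836 to 0.869). Nos2 was below MICFs in GMTMS-iCMs, at 0.625 (0.541 to 0.721), and above it in the library labelled GMTMM, at 1.28 (1.12 to 1.47), so the sign for GMTMS-iCMs was opposite to that of its FPKM ratio of 1.24. The marker sum treats each macrophage as giving the same marker RNA in all libraries, which was not tested, and the members need not come from macrophages.

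**Figure D3:**
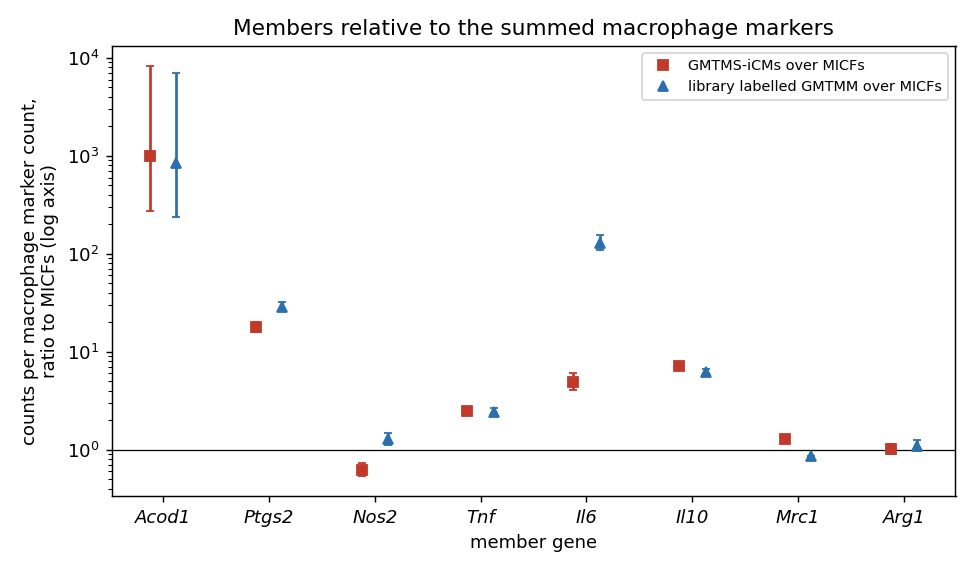
Counts of each member per macrophage marker count, as a ratio to MICFs on a log axis, for GMTMS-iCMs (red squares) and the library labelled GMTMM (blue triangles), with 95% counting intervals and a line at 1. Acod1, Ptgs2, Tnf, Il6 and Il10 lie above 1 in both, Arg1 at 1.02 and 1.09, and Nos2 at 0.625 and 1.28.

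Among 18 other classical activation genes, 12 were called higher and 0 lower in GMTMS-iCMs, with a median of 1.74, and 11 and 0 in the library labelled GMTMM, with a median of 1.21. The largest differences in GMTMS-iCMs were those of the interleukin 1 genes Il1a (4.95) and Il1b (4.16) and of the costimulatory receptors Cd86 (4.27) and Cd40 (3.78). In the library labelled GMTMM the same 4 differed from MICFs by 3.59, 2.81, 2.81 and 2.91. All 4 had the order of Acod1, with GMTMS-iCMs above that library, and not that of Il6. For this list and those below, 3.13% of all genes were called higher and 2.72% lower in GMTMS-iCMs against MICFs. In the library labelled GMTMM the shares were 2.12% and 1.3%. Among the 13919 genes with an FPKM of at least 1 they were 12.1% and 10.7%, then 8.31% and 5.09%. The lists were chosen with earlier results known, so nothing is read from their counts.

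The 18 other alternative activation genes were divided, with 6 higher and 2 lower (median 0.74) in GMTMS-iCMs and 5 higher and 3 lower (median 0.11) in the library labelled GMTMM. The crosslinking enzyme Tgm2 differed by 3.05 and 2.13, the chemokine Ccl24 by 2.86 and 2.01, and the scavenger receptor Msr1 by 2.18 and 0.62. Ccl22, a chemokine, had 0 counts in MICFs and 85 and 43 in the iCM libraries, at least 43.9-fold and 17.7-fold higher than the limit of 3 counts. In the opposite direction, Egr2, a transcription factor that interleukin 4 induces, was lower by 2.13 and 2.30 on the log2 scale, and the scavenger receptor Stab1 by 1.18 and 2.20. These 2 were named because they are the genes of the list called lower in GMTMS-iCMs. With DESeq2 size factors, with TMM or with no quantile normalization 1 gene of the list was lower there, and the FPKM of Stab1 in GMTMS-iCMs was 0.759 times that of MICFs.

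Of the 18 ligands and receptors, 5 were higher and 1 lower in GMTMS-iCMs and 3 and 2 in the library labelled GMTMM. The bacterial sensors Tlr2 and Cd14 differed from MICFs by 3.54 and 3.07 in GMTMS-iCMs and by 2.49 and 2.15 in the library labelled GMTMM. Il4ra, the receptor chain of interleukins 4 and 13, differed by 2.36 and 1.19. The ligands of these programs were scarce, since Ifng had 0, 0 and 12 counts, Il13 had 0 in each and Il4 had 52, 24 and 21.

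The receptors for the member cytokines did not move as one. For the tumor necrosis factor receptors, Tnfrsf1b differed from MICFs by 1.60 and 0.36 and Tnfrsf1a by 0.00 and -0.02, although its FPKM was 1.56-fold and 1.48-fold that of MICFs. For interleukin 10, Il10ra differed by 0.16 and -1.05 and Il10rb by -0.14 and -0.84. For interleukin 6, Il6ra differed by -0.08 and -1.04, and Il6st, its shared signalling chain, by -1.47 and -0.20. The number of lower calls varied with the scaling. With FPKM left without quantile normalization, 0 of the 18 ligands and receptors were called lower in either iCM library. With TMM, 1 was lower than in MICFs for each iCM library. With DESeq2 size factors, 0 were lower for GMTMS-iCMs, while the library labelled GMTMM had 1.

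The 15 signal transducers and feedback genes stood apart from MICFs in both iCM libraries, with 10 higher and 0 lower (median 1.33) in GMTMS-iCMs, 11 and 0 (median 1.31) in the library labelled GMTMM, and 0 called in either direction between them. Tnfaip3, a deubiquitinase that restrains NF-kappaB, differed from MICFs by 4.39 and 4.27. Irf1, an interferon-induced transcription factor, differed by 3.39 and 3.49, the cytokine suppressor Socs1 by 2.73 and 3.51, and the NF-kappaB subunit Nfkb1 by 2.68 and 2.42.

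Around Acod1, of 13 genes of the citrate cycle, succinate oxidation and the Nrf2 response, 1 was higher and 0 lower in GMTMS-iCMs, with a median of -0.18 that became 0.16 without quantile normalization, where 3 were higher. The one called on the main scale, the cystine transporter Slc7a11, differed by 3.21 and 1.57. Nfe2l2, which encodes Nrf2, differed by 0.90 and 0.43, and its target Hmox1 by 0.58 and 0.13. Idh1, the cytosolic isocitrate dehydrogenase, differed by -0.62 and -1.14.

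Around Nos2 and Arg1, GMTMS-iCMs had 3 of 10 arginine and nitric oxide genes higher and 4 lower, and 3 and 0 in the library labelled GMTMM. Gch1, which starts synthesis of the Nos2 cofactor tetrahydrobiopterin, differed by 3.25 and 2.87. Arg2, the mitochondrial arginase, had 4, 132 and 71 counts and differed by 3.18 and 2.10, more than Arg1 did. Nos3, the endothelial synthase, and Ass1, which rebuilds arginine from citrulline, differed by -3.43 and -2.60 in GMTMS-iCMs and by -0.32 and -0.72 in the library labelled GMTMM. The 6 endothelial markers were all lower in GMTMS-iCMs, and their part in the value of Nos3 was not tested.

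Around Ptgs2, 1 of 13 prostaglandin genes was higher and 2 lower in GMTMS-iCMs against MICFs, and 1 and 2 in the library labelled GMTMM. The calls of the 2 libraries did not all fall on the same genes. The genes named here were chosen by their differences in GMTMS-iCMs, and of them Hpgd alone was called in the library labelled GMTMM. The gene called higher in that library, by 1.64, is not among them. The prostaglandin E2 receptors Ptger4 and Ptger2 differed by 1.13 and 0.82 in GMTMS-iCMs and by 0.16 and 0.49 in the library labelled GMTMM. Ptgis, the prostacyclin synthase, differed by -1.37 and 0.60, and Hpgd, which breaks prostaglandins down, by -1.40 and -2.33. Without quantile normalization 1 gene of the list was lower in GMTMS-iCMs, and the FPKM of Hpgd was 0.574 and 0.276 times that of MICFs.

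**Figure D4:**
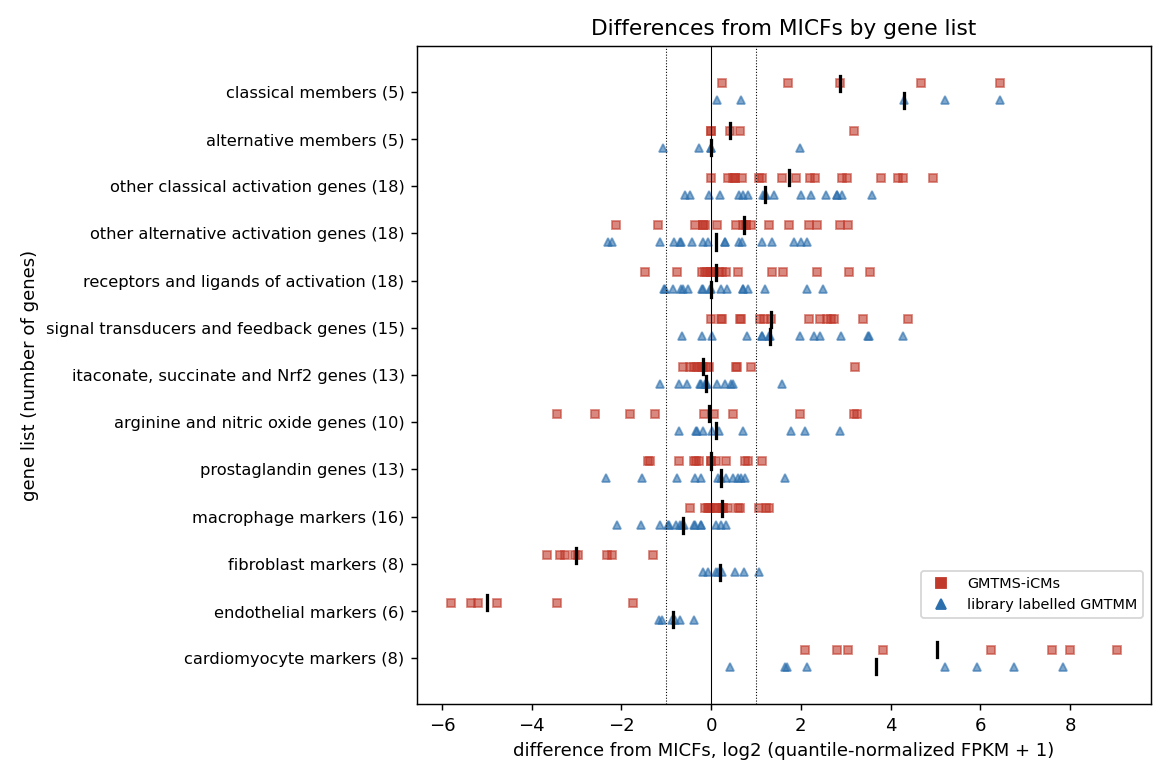
Differences from MICFs on the log2 (quantile-normalized FPKM + 1) scale for each gene of the member sets and related lists, with red squares for GMTMS-iCMs, blue triangles for the library labelled GMTMM, black bars at the medians and dotted lines at -1 and 1. Signal transducers center near 1.33 and 1.31 in both libraries, macrophage markers at 0.24 and -0.63, and fibroblast markers at -3.00 and 0.20.

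The 16 macrophage markers, set beside the members, had 3 higher and 0 lower in GMTMS-iCMs (median 0.24) and 0 higher and 3 lower in the library labelled GMTMM (median -0.63). Without quantile normalization 9 were higher and 0 lower (median 1.02) and 0 higher and 2 lower (median -0.07), and with TMM 6 were higher in GMTMS-iCMs. The 3 higher markers were Ptprc, the leukocyte phosphatase CD45 (1.23), Spi1, which encodes PU.1 (1.30), and Itgam, the integrin CD11b (1.07), all chosen by their size in the list. Adgre1, the F4/80 antigen, differed by 0.63 and -0.65.

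Over the 3 libraries, the profile of Acod1 was compared with that of every gene with over 10 counts in some library, by Euclidean distance of values centred on each gene's mean. The nearest were Acta1, the skeletal muscle actin, at 0.131, Tnnt2, the cardiac troponin T, at 0.168, Ccl5, a chemokine, at 0.402, Mx1, an interferon-induced antiviral gene, at 0.527, and Oasl1, another interferon-induced gene, at 0.564. Acta1 had 2, 1467 and 666 counts and Tnnt2 had 3, 6216 and 3594. Ccl5 had 21, 1499 and 1021 counts, Mx1 had 163, 9616 and 4183, and Oasl1 had 117, 5786 and 3220, so these last were counted in MICFs where Acod1 was near absence. With 3 libraries, nearness says only that the steps between the libraries were of similar size on this scale.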

How the data were processed

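RNA was sequenced as paired-end reads from 3 mouse libraries, 1 for each of MICFs, GMTMS-iCMs and GMTMM-iCMs. The authors deposited raw counts per gene and FPKM per gene in tables of 54532 genes. The submitters' processing notes name HISAT2 2.0.5 and an older mouse build, but 98.3% of the gene identifiers also found in GENCODE M21 had identical GRCm38 coordinates, so GRCm38 is given here. The counting tool, its strand setting and its treatment of reads with several matches are not given in the sources used here. The deposited FPKM were found to be scaled by library sizes of 14389264, 9287868 and 11680913, which follow DESeq2 size factors and not the count totals. The table columns were matched to the samples by name, with cMF taken as the MICFs, the column left once the cocktails were named.

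FPKM were quantile-normalized over the 3 libraries with ties averaged and taken as log2 (value + 1), after the study's methods, and a difference over 1 was called. With 1 library per condition no test was possible and no p-value was computed. Quantile normalization shifts abundant genes: the median difference of the top 1000 genes between GMTMS-iCMs and MICFs was -0.19 with it and 0.43 without it, and 0.42 without it and -0.12 with it for the library labelled GMTMM. FPKM ratios had 95% Clopper-Pearson intervals, levels had exact Poisson intervals, and 3 counts were the limit for a count of 0. All of these cover counting error only.

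The members and the gene lists were chosen with earlier results of these data known. Named genes were the 10 members, Sall4 and Mesp1, up to 4 genes per list with the largest difference between GMTMS-iCMs and MICFs among genes with over 10 counts, 7 receptors fixed by name, cell type markers, and the 5 genes nearest to Acod1. Il13, Il4, Ifng, Egr2, Stab1 and the blood cell markers were named after their values were seen. Alternatives were log2 before normalization, no quantile normalization, a pseudocount of 0.1, an FPKM filter of 1, protein-coding genes, log2 CPM with TMM factors (edgeR, prior count 2), DESeq2 size factors, thinned counts and a difference over 2. For GMTMS-iCMs against MICFs, quantile normalization over this pair of libraries alone was a further alternative that was not planned. The steps were tested on simulated counts drawn around a shared profile with a set of genes raised. This does not test the shift of abundant genes under quantile normalization. The versions were R 4.3.3 with DESeq2 1.42.0 and edgeR 4.0.16, and Python 3.11.15 with matplotlib 3.10.9, SciPy 1.17.1, numpy 2.4.6 and pandas 2.3.3.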

Additional observations from a re-analysis of the deposited data

How the results depend on the processing

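No paired analysis was possible because there was only 1 library for every condition, and no replicate was left out for the same reason. Over 24 member differences and 200 values under the alternatives, 141 stayed within the counting interval of the main value, 59 moved and 0 changed sign. The calls over 1 of Acod1, Ptgs2, Il6 and Il10 against MICFs held in every scaling. Those of Tnf, Mrc1 and Arg1 changed as given in the text. With a difference over 2, Il10 in the library labelled GMTMM, at 1.98, was not called. Of 162 values for the counts and medians, 116 were labelled the same and 46 moved. A count was labelled the same within a set ratio of its main value, so it need not be equal. A median was labelled the same within the medians of the members' interval ends. Members higher in GMTMS-iCMs than in MICFs numbered 5 on the main scale, 6 without quantile normalization and with TMM, and 7 with DESeq2. In the library labelled GMTMM they numbered 4 on the main scale and 5 in these alternatives. The cause of the moves was not tested except where stated.

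Genes called higher and lower numbered, for GMTMS-iCMs minus MICFs, the library labelled GMTMM minus MICFs and GMTMS-iCMs minus that library, 4138 and 4185, 3360 and 3194, and 3711 and 3833 with a pseudocount of 0.1, 3586 and 4276, 3568 and 2652, and 2943 and 4450 with TMM log2 CPM, and 5138 and 4823, 3865 and 3324, and 4515 and 4515 with DESeq2 size factors. With a difference over 2, which can only lower the counts, they numbered 497 and 479, 329 and 63, and 74 and 513. Among protein-coding genes, fewer by construction, 443 were lower than MICFs in the library labelled GMTMM, and 792 exceeded it in GMTMS-iCMs.

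The count of members lower than MICFs in the library labelled GMTMM was 0 with a difference over 2, with TMM, with DESeq2 size factors and without quantile normalization, and 0 members were higher in GMTMS-iCMs than in that library by over 2. The classical median for GMTMS-iCMs against MICFs was 3.17 with a pseudocount of 0.1, 3.18 with TMM and 3.28 with DESeq2. Between the library labelled GMTMM and MICFs it was 4.46 without quantile normalization, 4.52 with a pseudocount of 0.1, 4.67 with TMM and 4.70 with DESeq2. Between the iCM libraries it was 0.43 without quantile normalization and 0.44 with DESeq2. The alternative median for GMTMS-iCMs against MICFs was 0.92 with TMM, 0.97 without quantile normalization and 1.01 with DESeq2. With the FPKM filter, which leaves out Chil3 and Retnla, it was 0.65, and -0.26 and 1.21 in the other comparisons. Per macrophage marker count, an alternative without Lyz2, chosen after seeing the data, moved 1 of 16 ratios, that of Mrc1 in GMTMS-iCMs, to 1.19.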
